A study of Arabidopsis thaliana with 4 samples.

Results

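The EDS1 node of plant immunity is covered by 9 Arabidopsis thaliana genes. The EDS1 family is represented by EDS1 (AT3G48090), its tandem copy EDS1B (AT3G48080), PAD4 (AT3G52430) and SAG101 (AT5G14930), and the helper receptors by ADR1 (AT1G33560), ADR1-L1 (AT4G33300), ADR1-L2 (AT5G04720), NRG1.1 (AT5G66900) and NRG1.2 (AT5G66910). They were chosen by locus, as every gene spot whose systematic name is 1 of the 9 loci, out of 29030 loci on the array. All 9 were measured, by 18 of the array's 43603 probes. All 18 probes passed the filter on dim probes, as did 31105 of the 38413 probes assigned to a locus. Plants of the wild-type ecotype Col-0 that had shared the air of an upright plate with the bacterium Pseudomonas syringae DC3000 (exposed, Cy5 red dye) were compared with plants of the same ecotype on plates without bacteria (control, Cy3 green dye). The 4 samples are 4 two-colour Agilent arrays, each holding exposed RNA and control RNA side by side. Plants had grown on agar for 8 days and exposure lasted 12 hours according to the design text, whereas the sample labels give 12 days for both channels. Plants sat in the upper and bacteria in the lower part of the plate, no mutation or transgene is named for either group, and the labels name no organ.

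EDS1, PAD4 and SAG101 are lipase-like proteins without known lipase activity in immunity. EDS1 pairs with either PAD4 or SAG101, and these pairs bind small nucleotide-derived signals made by TIR-domain immune receptors. The EDS1-PAD4 pair works with the ADR1 helpers and promotes salicylic acid production and basal resistance, and the EDS1-SAG101 pair works with the NRG1 helpers, mostly towards cell death. The helpers are NLR proteins (nucleotide-binding, leucine-rich repeat immune receptors) with an RPW8-like N-terminal domain, and once activated they form calcium-permeable channels in the plasma membrane. In the gene order of the RefSeq annotation (TAIR10.1), EDS1 and EDS1B are neighbours on chromosome 3 with 0 genes between them, and NRG1.1 and NRG1.2 are neighbours on chromosome 5.

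Signals of single genes are normalized scanner units after background correction, loess and a between-array step on mean brightness, and log2 ratios are exposed over control within an array. Before normalization, arrays 1 to 3 had median gene-spot signals of 336 to 373 units in the exposed channel and 292 to 362.5 units in the control channel. Array 4 had 1286 units in exposed plants and 575.5 units in control plants. Across tested genes, which are not independent replicates, log2 ratios of arrays 1 to 3 correlated with each other at r = 0.648 to 0.779 and with array 4 at r = 0.220 to 0.288. Array 4 therefore stands apart, and the ratio of each of the 9 genes and the counts of each gene list are also given without it. Exposed RNA was in Cy5 on every array, so a dye preference of a probe cannot be told apart from exposure. Nothing in the labels says that the arrays hold RNA from separate plants, so p-values reflect only how far these arrays scatter, and that scatter may be technical. Each RNA sample pools many cells, so more cells of a type and more RNA per cell cannot be told apart. Of the tissue markers, 7 of 7 for leaf and shoot, 8 of 8 for root and 4 of 4 for vascular tissue were well above background in both channels of every array. Over all gene spots, 75.1% to 78.9% per channel were well above background on arrays 1 to 3. On array 4 the shares were 99.6% in the exposed and 97.2% in the control channel, so passing there sets no marker apart.

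The gene for PAD4, the partner through which EDS1 drives salicylic acid signalling, was higher in exposed plants on every array. Its normalized signal was 2673, 2463, 2926 and 2811 units in exposed plants on arrays 1 to 4, against 1698, 1653, 1906 and 1931 units in control plants. All 4 exposed signals lay above all 4 control signals. PAD4 rose 1.51-fold (log2 ratio 0.60 ± 0.060 SE, 95% interval 0.45 to 0.74, n = 4 arrays, adjusted p = 0.0149 in limma). The log2 ratios of 0.65, 0.58, 0.62 and 0.54 on arrays 1 to 4 had an SD of 0.049, and without array 4 the ratio was 0.62 (adjusted p = 1.0e-06). By log2 ratio the gene lay at the 99.6th percentile of the 22690 tested genes. All these values come from the brightest of its 3 probes. The dimmer ones gave 0.29 and 0.040, and the mean of its probes was not called (0.31, adjusted p = 0.0811 in limma).

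EDS1B, the tandem copy of EDS1, was the other member called. Its signal was 662, 531, 664 and 482 units in exposed plants and 461, 411, 459 and 416 units in control plants on arrays 1 to 4. The groups did not overlap, and the gap was narrowest on array 4. EDS1B rose 1.33-fold (log2 ratio 0.41 ± 0.077 SE, n = 4, adjusted p = 0.0465 in limma). This call is close to the threshold, and without array 4 the log2 ratio was 0.47 with an adjusted p of 2.6e-05.

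EDS1 itself, the shared partner of PAD4 and SAG101, was not called. Its signal was 1154, 1291, 1336 and 1549 units in exposed plants and 1103, 1192, 1046 and 1223 units in control plants on arrays 1 to 4. Exposed was above control within every array, while the groups overlapped across arrays. The log2 ratio was 0.22 ± 0.077 SE (95% interval 0.035 to 0.40, n = 4, adjusted p = 0.148 in limma). Arrays 1 and 2, on slide 1, averaged 0.090, and arrays 3 and 4, on slide 2, averaged 0.35. Without array 4 the log2 ratio was 0.18 (adjusted p = 0.0452). EDS1 and EDS1B are similar copies, and their probes may read each other's transcripts, which was not tested because probe sequences were not used here.

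SAG101, which pairs with EDS1 in the branch that uses the NRG1 helpers, was at 1813, 2120, 1870 and 1643 units in exposed plants, against 1381, 1691, 1485 and 1507 units in control plants. Exposed was the higher channel on each array, with the smallest gap on array 4, and the groups overlapped. Its log2 ratio was 0.29 ± 0.070 SE (95% interval 0.13 to 0.46, n = 4), which missed the threshold with an adjusted p of 0.0725 in limma. Without array 4 the log2 ratio was 0.35 and the adjusted p 2.8e-04.

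**Figure D1:**
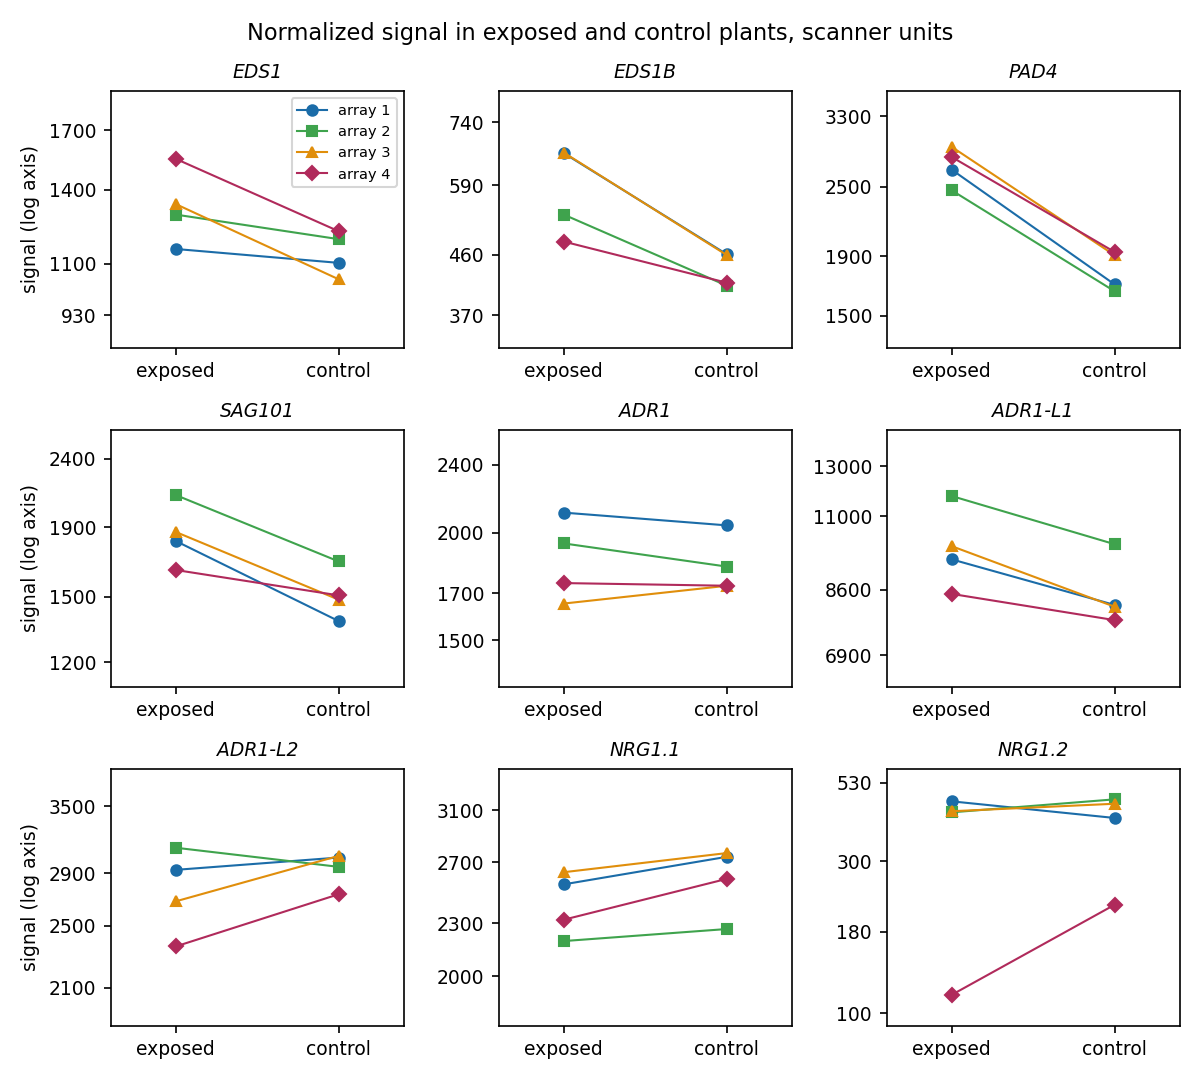
Normalized signal of the brightest probe of each of the 9 genes in scanner units on a log axis (each panel has its own range), with exposed plants at the left and control plants at the right and 1 line per array. PAD4 and EDS1B have all 4 exposed points above all 4 control points, while NRG1.2 on array 4 (114 units exposed, 219 units control) sits far below the other arrays in both channels.

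Of the 3 ADR1-type helper genes, ADR1-L1 had the highest ratio and none was called. ADR1-L1 read 9516, 11768, 9946 and 8476 units in exposed plants and 8168, 10013, 8120 and 7763 units in control plants on arrays 1 to 4. The exposed channel was higher within each array, but the arrays differed from each other by more than the channels did. The log2 ratio was 0.22 ± 0.062 SE (95% interval 0.070 to 0.37, n = 4, adjusted p = 0.0987 in limma), and 0.25 with an adjusted p of 0.0038 without array 4. On slides 1 and 2 its means were 0.23 and 0.21.

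ADR1, the founding member of this helper family, had almost the same signal in both channels: 2112, 1944, 1654 and 1748 units in exposed plants and 2041, 1827, 1735 and 1735 units in control plants. Its log2 ratio of 0.020 ± 0.062 SE had a 95% interval from -0.13 to 0.17 (n = 4, adjusted p = 0.863 in limma), and was 0.023 without array 4. ADR1-L2, another ADR1-type helper gene, read 2926, 3114, 2678 and 2359 units in exposed plants and 3029, 2951, 3044 and 2732 units in control plants. The channels changed order between arrays, and the log2 ratio was -0.092 ± 0.073 SE (95% interval -0.27 to 0.083, n = 4, adjusted p = 0.463 in limma), and -0.052 without array 4.

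Both NRG1-type helper genes had negative mean ratios and neither was called. NRG1.1 read 2548, 2194, 2631 and 2321 units in exposed plants, against 2740, 2265, 2767 and 2585 units in control plants. Exposed was the lower channel on all 4 arrays by a small amount (log2 ratio -0.095 ± 0.060 SE, 95% interval -0.24 to 0.048, n = 4, adjusted p = 0.361 in limma), with -0.074 without array 4. NRG1.2 read 463, 427, 431 and 114 units in exposed plants and 410, 469, 455 and 219 units in control plants. Its log2 ratio was -0.245 ± 0.17 SE (95% interval -0.66 to 0.17, n = 4, adjusted p = 0.412 in limma), and -0.013 without array 4. NRG1.2 had the widest spread of the 9 genes, with an SD of 0.48 over arrays.

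**Figure D2:**
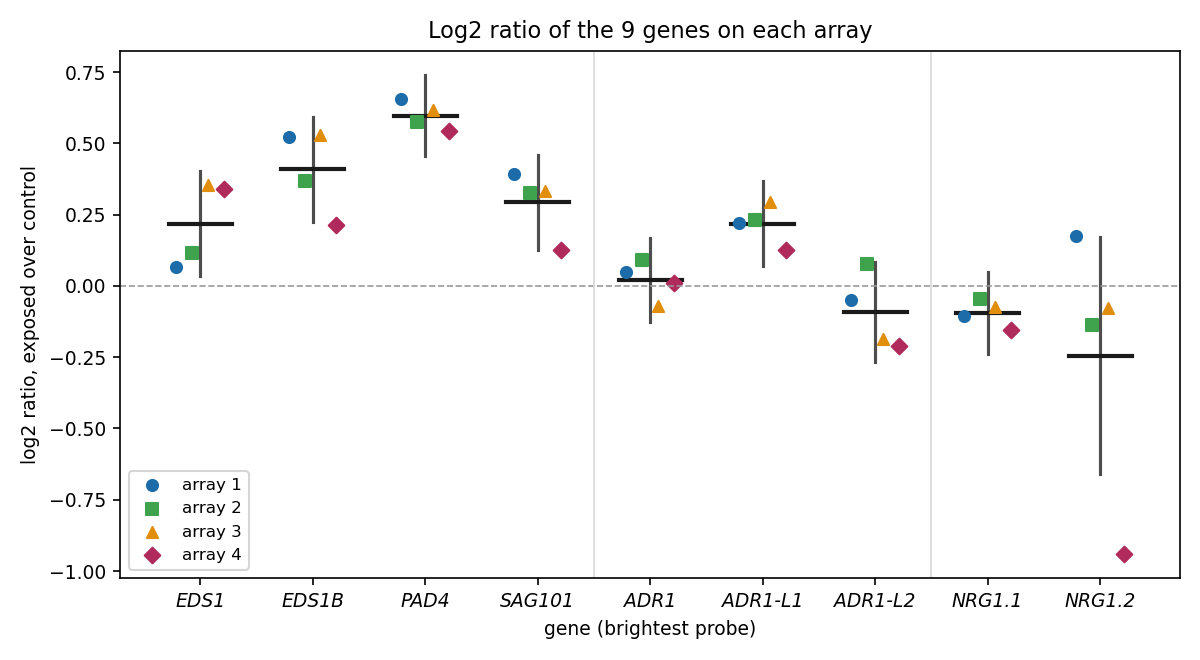
Log2 ratio of exposed over control for the brightest probe of each gene, with 1 point per array, the fitted mean as a horizontal bar and its 95% interval as a vertical line. The 4 EDS1-family genes and ADR1-L1 have all points above 0, ADR1, ADR1-L2 and the NRG1 genes scatter around or below 0, and the point of NRG1.2 on array 4 lies at -0.94.

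Counted together, 2 of the 9 genes rose and 0 fell at an adjusted p below 0.05 in limma, where 3.4% of the 22690 tested genes were called, 1.58% higher and 1.82% lower. At an unadjusted p below 0.05 there were 5 of the 9 genes, all higher in exposed plants, against 24.8% of all tested genes in either direction. Without array 4, 5 of the 9 rose (PAD4, EDS1B, SAG101, ADR1-L1 and EDS1) and 0 fell, where 31.1% of tested genes were called, 16.8% higher and 14.3% lower. Without array 1, 2 or 3, limma called 0 of the 9 genes and 0 genes in all, with 4 of the 9 at an unadjusted p below 0.05 each time. Of all 22690 tested genes, 3580, 3873 and 3494 were at an unadjusted p below 0.05 in the same limma fits. PAD4 then had log2 ratios of 0.58, 0.60 and 0.59 with adjusted p values of 0.161, 0.156 and 0.215. Counting arrays 1 to 3 as 1 sample beside array 4 also left 0 called genes, with 1 of the 9 and 1317 of all genes at an unadjusted p below 0.05 and PAD4 at 0.58 (adjusted p = 0.633). The calls on PAD4 and EDS1B were thus made only where arrays 1 to 3 all entered as separate samples.

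Exposed exceeded control on all 4 arrays for 5 of the 9 genes, a pattern that 17.2% of tested genes show, and the reverse held for NRG1.1, a pattern shown by 20.7%. The normalized signals did not overlap for 2 of the 9 genes, PAD4 and EDS1B, where 4.08% of tested genes had all exposed signals above all control signals. The opposite order held for 0 of the 9 and 5.6% of tested genes. The median log2 ratio of the 9 genes was 0.22 (0.11 when a gene's probes were averaged and 0.13 with array weights), against -0.0046 over all tested genes. By array the median of the 9 was 0.17, 0.12, 0.29 and 0.12, against 0.0069, 0.0080, 0.0081 and -0.068 over all genes.

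Whether the members differ from each other was asked within arrays for 6 pairs, with an exact sign-flip permutation test (two-sided), whose smallest possible p with 4 arrays is 0.125. PAD4 exceeded SAG101 in log2 ratio by 0.30 ± 0.077 (SD, n = 4) and on 4 of 4 arrays (exact p = 0.125, adjusted p = 0.188 over 6 pairs). PAD4 exceeded EDS1 by 0.38 ± 0.18 (SD, n = 4), also on 4 of 4 arrays with the same exact p. EDS1B exceeded EDS1 on 3 of 4 arrays, by 0.19 ± 0.24 on average (exact p = 0.25), a mean difference smaller than the spread between arrays. Among helpers, ADR1-L1 was above ADR1 by 0.20 ± 0.11 and above ADR1-L2 by 0.31 ± 0.13 (SD, n = 4), on 4 of 4 arrays in both cases (exact p = 0.125 for each). NRG1.2 minus NRG1.1 was -0.15 ± 0.45 (exact p = 0.625). No pair could pass the threshold in this design.

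For genes with several probes the ratio differed between probes. PAD4 was read by 3 probes, and both dimmer ones gave smaller ratios than the brightest: 0.29 (0.37, 0.38, 0.34 and 0.065 on arrays 1 to 4) and 0.040 (0.14, 0.18, 0.25 and -0.41). All 3 probes of PAD4 were positive on arrays 1 to 3, and on array 4 they ran from 0.54 for the brightest to -0.41 for the dimmest. With the mean of its probes PAD4 was at 0.31 and not called (adjusted p = 0.0811). EDS1 was also read by 3 probes, at 0.22, 0.23 and 0.037. Its second-brightest probe gave -0.18, -0.032, 0.18 and 0.97 on arrays 1 to 4. The last of these came from 1422 units in exposed plants and 727 units in control plants.

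SAG101 was read by 3 probes that are assigned to different transcript models of the gene. The probe named for model 3 gave 0.29, that for model 2 gave 0.28 and that for model 1 gave -0.066. The model 2 probe was positive on every array but varied from 0.034 to 0.64, and the model 1 probe had both signs. Whether the transcript models differ in response was not tested, since brightness also differs between these probes. ADR1-L1 had a dim second probe at -0.0027, and this probe cleared background on 3 of 4 arrays in control plants. The 3 probes of NRG1.1 averaged -0.095, -0.12 and -0.37, and apart from 0.0066 for the middle one on array 1 each reading was negative. Its dimmest probe gave -0.32, -0.21, -0.26 and -0.68 on arrays 1 to 4 (adjusted p = 0.0838 over all 31105 tested probes), lower in exposed plants on each array.

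Adjusted over all tested probes, 2 of the 18 probes were called in limma, both higher in exposed plants, where 2.93% of tested probes were called and 1.28% were called higher. These were the brightest PAD4 probe (adjusted p = 0.0166) and the single EDS1B probe (adjusted p = 0.0491). EDS1B, ADR1, ADR1-L2 and NRG1.2 have 1 probe each, so no other probe bears on their ratios.

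**Figure D3:**
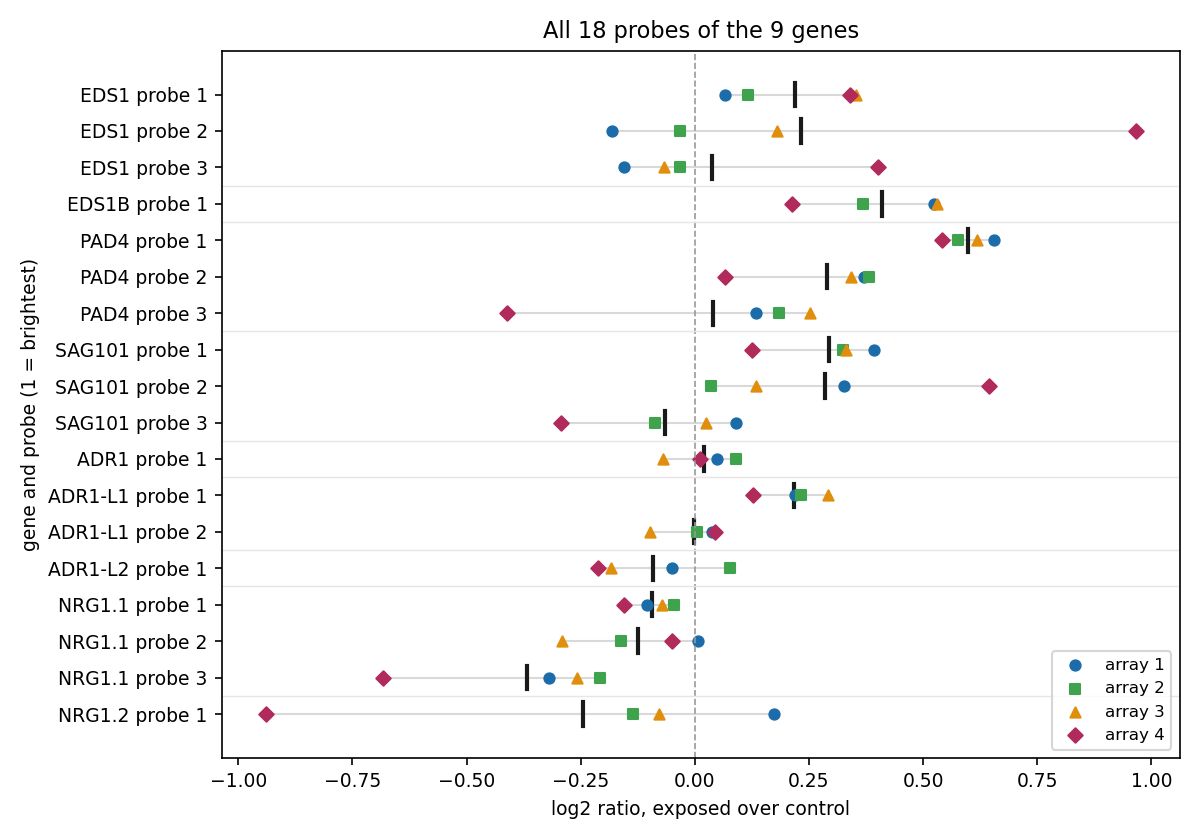
Log2 ratio of exposed over control for all 18 probes, grouped by gene and ordered from the brightest probe down, with 1 point per array and the mean as a vertical bar. Points of array 4 lie at the end of the range for most dimmer probes, above the others for the dimmer EDS1 probes (up to 0.97) and below them for the dimmer PAD4 probes (down to -0.41).

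The tested genes with the most similar pattern were taken as those with the smallest Euclidean distance over the 4 array log2 ratios, among 22614 genes outside the 9 with values on 4 arrays. Nearest to PAD4 were MLP34, a gene of the major latex protein family (distance 0.084, log2 ratio 0.58), AT1G62510 (distance 0.12, log2 ratio 0.54) and AT4G16563 (distance 0.12, log2 ratio 0.56). Nearest to EDS1 were the transcription factor gene bHLH093 (distance 0.037), the ethylene receptor gene ETR1 (distance 0.045) and AT2G19755 (distance 0.048), all with ratios of 0.049 to 0.058 on array 1 and 0.32 to 0.38 on array 4. Nearest to ADR1-L1 were AT3G07720 (distance 0.036), NPL41 (distance 0.049) and the prefoldin subunit gene AIP3 (distance 0.052). The likeness rests on 4 values per gene and is a description only.

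TIR-type NLR sensors feed signals into the EDS1 node. Of 22 listed sensors 18 were tested, 0 rose, 1 fell and 17 were not called (background 1.58% up and 1.82% down by adjusted p). At an unadjusted p below 0.05 in limma, 1 was higher and 6 were lower, where 24.8% of all tested genes passed in either direction. The called one was RPP2A, a receptor gene for downy mildew resistance, which fell by 0.38 on the log2 scale (lower on 4 of 4 arrays, adjusted p = 0.0344). In limma RPP2A was not called with median centring (adjusted p = 0.189) or with no filter on dim probes (adjusted p = 0.0508). The list median was -0.090, and 8e-04 with no filter on dim probes. Of 10 CC-type NLR sensors, whose signals in part bypass EDS1, RPP8 fell 1.33-fold (log2 ratio -0.41, adjusted p = 0.0418), 0 rose and 9 were not called, with a median of -0.22 and 8 of 10 ratios negative. RPP8 belongs to a variable family, its second-brightest probe gave -0.067, and by the mean of its probes it was at -0.27 and not called (adjusted p = 0.137). In limma RPP8 also lost its call with median centring (adjusted p = 0.235), no filter (0.0603) and the scanner software's ratio (0.0546). The median of the CC-type list ran from -0.27 to -0.13 over the 13 alternatives. Without array 4 the counts were 1 up and 7 down of 18 for the TIR-type list and 0 up and 7 down of 10 for the CC-type list. Of all tested genes, 16.8% were called higher and 14.3% lower without array 4. The same shares belong beside every list count without array 4 below.

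Of 7 RPW8-domain relatives of the helpers, ADR1-L3 and NRG1.3 did not pass the filter and 5 were tested. With 4 arrays, 1.58% of all tested genes were called higher and 1.82% lower, beside this list and the next. HR4, an RPW8-like gene, rose 1.33-fold (log2 ratio 0.41 ± 0.064 SE, n = 4, adjusted p = 0.0357), with 0.46, 0.48, 0.30 and 0.38 on arrays 1 to 4, and its second probe gave 0.61. In limma HR4 was not called with median centring (adjusted p = 0.110) or with no filter on dim probes (adjusted p = 0.0521). The other 4 were not called, and all 5 ratios were positive (0.039 to 0.41, median 0.13, and 0.34 in the scanner software's log ratio). Without array 4, 2 of the 5 rose and 0 fell. None of 15 NLR chaperones, guardees and restraining factors was called by limma. At an unadjusted p below 0.05 in limma, 0 were higher and 3 lower, where 24.8% of all tested genes passed in either direction. Without array 4, 1 rose and 4 fell, where 31.1% of tested genes were called, 16.8% higher and 14.3% lower. With all 4 arrays, the lowest p values of this list belonged to the chaperone genes HSP90.2 (log2 ratio -0.26, adjusted p = 0.0707) and HSP90.1 (-0.23, adjusted p = 0.152). The second probe of HSP90.1 gave -0.79. HSP90.2 was called lower in the scanner software's ratio (adjusted p = 0.0435), with array weights (adjusted p = 0.0011) and without array 4 (adjusted p = 0.0053). HSP90.1 was called lower by the mean of its probes (-0.51, adjusted p = 0.0434) and without array 4 (adjusted p = 0.0396).

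Downstream of the node, 10 genes of salicylic acid and N-hydroxypipecolic acid synthesis were tested, of which 3 rose, 1 fell and 6 were not called, with a median of 0.21. With 4 arrays, 1.58% of all tested genes were called higher and 1.82% lower, beside this list and the perception list. Without array 4, 6 rose and 1 fell, where 16.8% of all tested genes were called higher and 14.3% lower. SARD1, a transcription factor that switches on salicylic acid synthesis, rose 1.54-fold (adjusted p = 0.0183), SARD4, which acts late in pipecolic acid synthesis, 1.35-fold (adjusted p = 0.0368), and EDS5, the plastid exporter for salicylic acid synthesis, 1.29-fold (adjusted p = 0.0438). FMO1, which makes N-hydroxypipecolic acid, fell 1.70-fold (log2 ratio -0.76, adjusted p = 0.0364). With no filter on dim probes, SARD4 (adjusted p = 0.0537), FMO1 (adjusted p = 0.0512) and EDS5 (adjusted p = 0.0635) were not called in limma. SARD4 and EDS5 also lost their calls with median centring (adjusted p = 0.124 and 0.170 in limma). The second probe of EDS5 gave -0.037, and EDS5 was not called by the mean of its probes (0.16, adjusted p = 0.187) or in the scanner software's ratio (0.17, adjusted p = 0.110). Of 9 genes of salicylic acid perception, NIMIN2, an interactor of the receptor NPR1, rose 1.34-fold (adjusted p = 0.0335), 0 fell and 8 were not called. NIMIN2 lost its call with median centring (adjusted p = 0.134 in limma). The list median of -0.035 turned to 0.0022 with median centring, 0.0077 with array weights and 0.0052 without array 4. Of the 9 genes, 2 rose and 0 fell without array 4.

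All 9 genes listed as EDS1-dependent outputs were called, 7 higher and 2 lower, with a median log2 ratio of 0.56. Of all tested genes, 1.58% were called higher and 1.82% lower with 4 arrays. Without array 4, 7 rose and 2 fell as well. Whether each of the 9 depends on EDS1 was not tested here. AED1, an apoplastic protease gene named for its dependence on EDS1, rose 2.14-fold (adjusted p = 0.0132), PR2 1.85-fold (adjusted p = 0.0117) and LURP1 1.59-fold (adjusted p = 0.0143). PR1, the usual salicylic acid marker, fell 2.68-fold (log2 ratio -1.42, lower on 4 of 4 arrays, adjusted p = 0.0038). SAG13, named after its values were seen because it is the other gene that fell, fell by 0.59 on the log2 scale (adjusted p = 0.0236). This list was drawn up with earlier results of these arrays known, so its count is not independent evidence. Each of these calls is also lost without array 1, 2 or 3, as are all others.

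**Figure D4:**
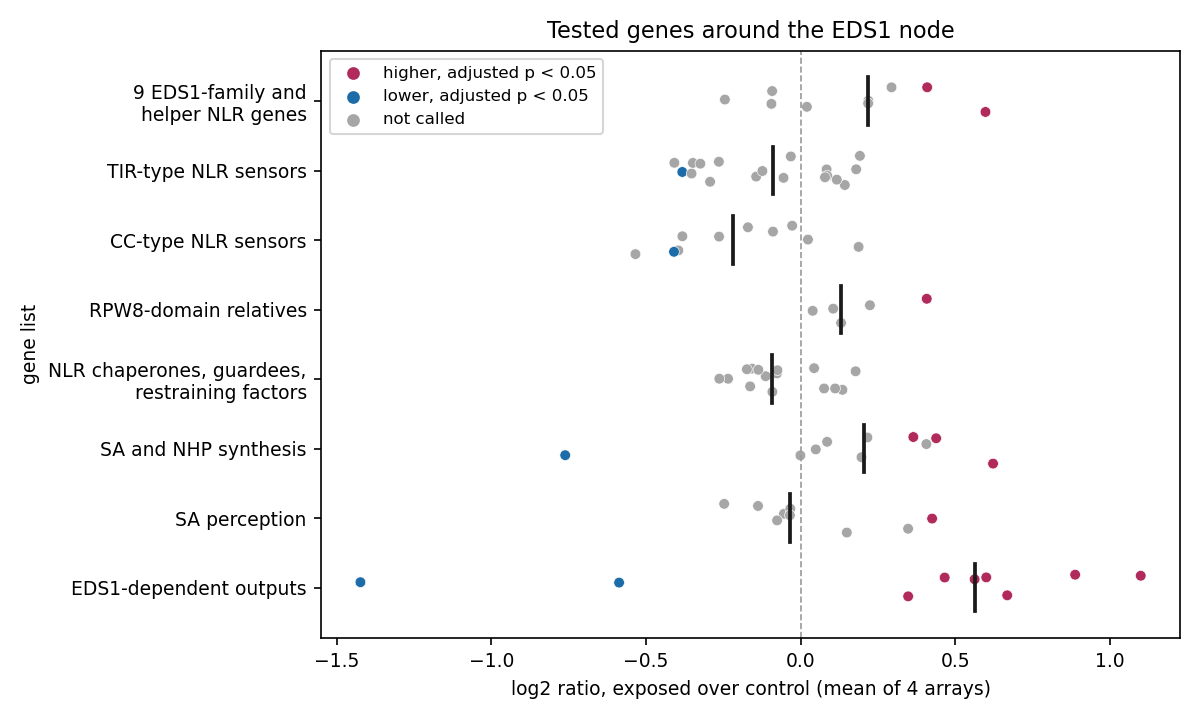
Log2 ratio of exposed over control for every tested gene of the EDS1 node and of 7 lists around it, with 1 point per gene (vertical position within a list has no meaning) and the list median as a vertical bar. Called genes of the node, of the synthesis list and of the output list lie mostly to the right, the sensor lists have medians of -0.090 and -0.22, and PR1 (-1.42) is the point farthest to the left.

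Of the tissue markers, 3 were called, all higher in exposed plants, in lists whose members ran both ways. Of 8 root markers 1 rose, 0 fell and 7 were not called, against 1.58% higher and 1.82% lower over all tested genes. The root list had a median of 0.16. Without array 4, 4 root markers rose and 1 fell, where 16.8% of all tested genes were called higher and 14.3% lower. The called one was PYK10, a root beta-glucosidase gene (log2 ratio 0.61, adjusted p = 0.0164), which was at 0.26 and no longer called by the mean of its probes (adjusted p = 0.0621). WER, a root epidermis gene named after its values were seen, had -0.36 (adjusted p = 0.0790). The summed signal of the 8 was 255506 to 275106 units in exposed plants and 180920 to 190410 units in control plants, and most of it came from PYK10. The other 7, a sum added after seeing the data, gave 37281 to 45997 units in exposed plants and 34258 to 36477 units in control plants. These ranges did not overlap, and the brightest of the 7 was PHT1.1, named after its values were seen. PHT1.1 gave 23740 to 32478 units in exposed plants and 22373 to 24739 units in control plants.

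Of 7 leaf and shoot markers 2 rose, 0 fell and 5 were not called, against 1.58% higher and 1.82% lower over all tested genes. The list median of -0.026 turned to 0.29 with median centring. Without array 4, 2 rose and 1 fell. The Rubisco small subunit gene RBCS1A was at 0.49 (adjusted p = 0.0305), against 0.25 by the mean of its probes (adjusted p = 0.0872) and 0.27 in the scanner software's ratio (adjusted p = 0.0787). The carbonic anhydrase gene CA1 was at 0.35 (adjusted p = 0.0418), but -0.088 by the mean of its probes and 0.039 in the scanner software's ratio. RCA, the Rubisco activase gene, named after its values were seen, had -0.29 (adjusted p = 0.0791) and was lower on 4 of 4 arrays. The 7 summed to 757375 to 770303 units in exposed plants and 651813 to 704637 units in control plants. Without RBCS1A the sums overlapped, at 482432 to 498697 units in exposed plants and 466827 to 501474 units in control plants. The 4 vascular markers summed to 17211 to 17946 units in exposed plants and 16826 to 17686 units in control plants, with 0 called in limma, 0 at an unadjusted p below 0.05 and 0 called without array 4. The part of tissue proportions in the ratios of PAD4 and EDS1B was not tested.

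**Figure D5:**
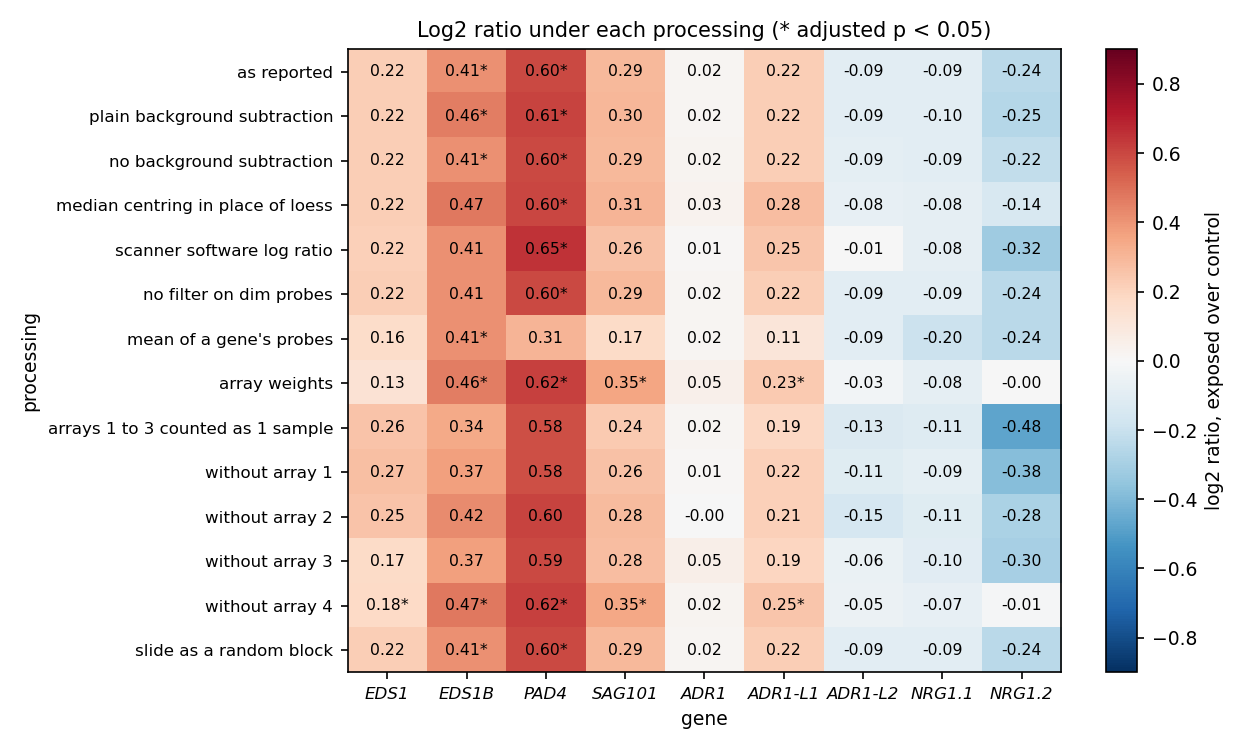
Log2 ratio of exposed over control for each of the 9 genes (columns) as reported and under 13 other ways of processing (rows), with colour for the ratio and an asterisk for an adjusted p below 0.05. PAD4 stays between 0.31 and 0.65 and EDS1B between 0.34 and 0.47 in every row, whereas NRG1.2 ranges from -0.48 to near 0.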

How the data were processed

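The 4 two-colour arrays in 1 group were analysed, numbered as in the labels. The deposited scanner files hold linear intensity per spot, made with Agilent Feature Extraction 11.5.1.1 per the file headers (8.5.1.1 per the submitters' processing notes). The log10 ratio that this software deposited, converted to log2, served as an alternative. The series matrix, deposited as log2 per the labels, equals log2 of exposed over control only for array 1 (45220 of 45220 spots, tolerance 0.001), and for arrays 2 to 4 it equals another quotient, so it was not used.

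In R 4.3.3 with limma 3.58.1, median signals were background-corrected (normexp, offset 50) and loess-normalized with control and outlier spots at weight 0. No gene spot was saturated. Tested probes were those that 3 or more of the 4 arrays gave as well above background, all in 1 channel (31105 probes, 22690 genes), and the brightest tested probe stood for its gene. Ratios were tested against 0 with lmFit and eBayes, two-sided, Benjamini-Hochberg adjusted over all tested genes, threshold 0.05, in a procedure tested on simulated data. Signals shown per channel were further scaled by Aquantile. The number of arrays limits the precision.

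Members and gene lists were chosen with earlier results of these data known. The text names all members, up to 4 called genes of lowest p per list (otherwise the 2 of lowest p), and for PAD4, EDS1 and ADR1-L1 the 3 nearest genes. RefSeq (TAIR10.1) held all 9 member loci, with no symbol for EDS1B, NRG1.1 or NRG1.2. The file headers name another annotation, so coordinates are not given. Alternatives covered background correction, normalization, filter, probe rule, array weights, replicate counting, each array left out and, added after seeing the data, slide as a random block.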

Additional observations from a re-analysis of the deposited data

Results flagged for a closer look

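FMO1 and the second-brightest probe of PAD4 were each far from their other readings on array 4. FMO1 had a log2 ratio of -1.22 there, against -0.56, -0.60 and -0.66 on arrays 1 to 3. The PAD4 probe was at 0.065 on array 4, against 0.37, 0.38 and 0.34 on arrays 1 to 3. Of 37 genes and probes examined in this way 2 were set apart, and chance sets apart about 1 in 20.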

How the results depend on the processing

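Calls of all genes, of the 9 members and of the 7 pathway lists numbered 772, 2 and 17. They became 216, 1 and 9 with median centring, 292, 1 and 9 with no filter on dim probes, 8275, 4 and 44 with array weights, and 0, 0 and 0 with arrays 1 to 3 counted as 1 sample (1317, 1 and 21 at an unadjusted p below 0.05). Plain background subtraction gave 1172 genes (672 higher and 500 lower, against 358 and 414), and median centring gave 166 higher and 50 lower. The scanner software's log ratio and the mean of a gene's probes each left 1 member called, PAD4 and EDS1B in turn. Leaving out each array in turn gave 0 to 7054 genes, 0 to 5 members and 0 to 40 list genes, the high end without array 4. Without array 1, 2 or 3 limma called 0 genes, with 3580, 3873 and 3494 genes, 4, 4 and 4 members, and 25, 28 and 23 list genes at an unadjusted p below 0.05. EDS1B lost its call with median centring (adjusted p = 0.0699), the scanner ratio (0.0597) and no filter (0.0666), and over all 13 alternatives its adjusted p ran from 1.0e-05 to 0.633. For PAD4 the range was 2.2e-07 to 0.633. ADR1 ran from -0.003 (without array 2) to 0.0498 (without array 3), changing sign in the first case, and the leaf marker CA1 turned to -0.088 with the mean of its probes. The other members kept their sign under all 13 alternatives. Slide as a random block left 745 genes, 2 members and 17 list genes. The test was already paired, since each ratio sets exposed against control within an array. No further pairing was possible because the 4 arrays form 1 group. The cause of these differences was not tested.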
